A study of Mus musculus with 8 samples.

Results

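The genes described here are 8 regulators of the naive pluripotent state, Tbx3, Tfcp2l1, Prdm14, Lin28a, Lin28b, Stat3, Lifr and Tcl1, out of 21938 protein-coding genes in the annotation. They were taken from a list of names, and a peak was given to a gene when its summit lay in the gene body or within 100 kb of the first start site of the gene. The peaks come from CUT&Tag, which uses an antibody to tether the transposase Tn5 beside a bound protein and sequences the DNA that the enzyme tags there. An anti-Flag antibody recognised the tag of the introduced factor, and the cells were mouse embryonic fibroblasts (MEFs) that had been reprogrammed for 3 days (day 3). The 8 libraries carried native Nanog, Oct4, Sox2 or Nr5a2, or the same factor fused to BiD, the part of SS18 that binds BRG1 in the BAF chromatin remodelling complex. Per the methods of the study, MEFs came from mid-gestation embryos with an Oct4-GFP (OG2) reporter, factors were delivered by retrovirus and the fusion was at the N-terminus. Other factors given to the same cells are not named in the titles, and a peak is the sum over all cells of the culture. Each group had 1 library, and no group had a replicate. Intervals are exact 95% intervals and cover counting error only.

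In mouse embryonic stem cells the cytokine LIF holds cells in the naive state. LIF binds LIFR, which signals through the kinase JAK to the transcription factor STAT3. TFCP2L1 is a transcription factor that acts below STAT3, and TBX3 is a further transcription factor of the naive state. PRDM14 is a PR-domain protein that represses differentiation genes and DNA methylation enzymes, and TCL1 is a cofactor of the kinase AKT. LIN28A and LIN28B are RNA-binding proteins that block maturation of the microRNA let-7. Fibroblasts use LIFR and STAT3 in ordinary cytokine signalling, whereas the other genes are better known from pluripotent cells and embryos. A peak at a gene is a record of tagged DNA near it and not of its expression. No control library is named, so binding of the factor cannot be told apart from background signal.

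The highest-scoring peak over all 8 genes lay in the same region in the native and the fused form of each factor, and the regions of 3 of the 4 factors lay far from any promoter. These peaks were chosen after their values were seen. The score of a peak is 10 times the negative log10 of the p-value from the peak caller, and its percentile is the share of peaks in the same list with a lower score. For Nanog the region lay 23.2 kb upstream of Lin28a, at chr4:134041163-134042560 (mm10, here and below). It had a score of 653 and a height of 56 tags in native Nanog, and a score of 957 and a height of 83 tags in NanogBiD, where it ranked 98 among 75769 peaks. The nearest start site of a coding gene there belonged to Zfp683 and not to Lin28a. Sox2BiD had a weak peak in this region, at percentile 22.8, and the other 5 libraries had none. For Sox2 the region lay 67.8 kb upstream of Lifr, at chr15:7021805-7023562, with a score of 557 in native Sox2 and 922 in Sox2BiD. For Nr5a2 it lay 51.3 kb upstream of Lifr, within chr15:7038319-7042104, with a score of 1052 in native Nr5a2 and 679 in Nr5a2BiD. The native Nr5a2 peak ranked 95 among 108030. For Oct4 the region was the promoter of Stat3, at chr11:100936598-100940662, with a score of 598 in native Oct4 and 658 in Oct4BiD. By percentile the order was the reverse, with 99.0 in native Oct4 and 98.1 in Oct4BiD. Scores and heights were not scaled to depth, here and below.

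The DNA under the distal peaks is printed below, 60 bases to either side of the summit, from the plus strand of GRCm38, the assembly behind mm10. Capitals mark matches to the motifs searched on both strands. These were GCCATTA for NANOG, ATGCAAAT for the octamer read by Oct4, CCATTGTT for SOX factors, TGACTCA and TGAGTCA for AP-1, and TCAAGGTCA, TCAAGGCCA, CCAAGGTCA and CCAAGGCCA for NR5A. The Stat3 promoter is not printed because its window runs into untranslated exon.
Lin28a upstream, NanogBiD, chr4:134041997-134042117: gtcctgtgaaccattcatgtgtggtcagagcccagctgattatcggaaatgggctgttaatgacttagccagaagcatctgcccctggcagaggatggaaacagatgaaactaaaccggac
Lifr upstream, Sox2BiD, chr15:7022782-7022902: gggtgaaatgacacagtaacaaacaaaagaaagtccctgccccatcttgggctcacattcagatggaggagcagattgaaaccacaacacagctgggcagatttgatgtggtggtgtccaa
Lifr upstream, Nr5a2, chr15:7039268-7039388: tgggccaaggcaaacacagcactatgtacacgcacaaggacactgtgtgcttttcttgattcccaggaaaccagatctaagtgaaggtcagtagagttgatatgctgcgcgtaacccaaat

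None of these windows held a match, so they are in lower case throughout. The factor of the library therefore had none of the searched letters at its strongest distal peak near these genes, which says nothing on other forms of its site.

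The regions below were selected because the motif of the tagged factor lay within 50 bp of a summit in both the native and the fused library. For Oct4 there were 3, and all 3 were at Lifr, which encodes the receptor subunit that binds LIF.
Lifr upstream, Oct4BiD, chr15:7068931-7069051: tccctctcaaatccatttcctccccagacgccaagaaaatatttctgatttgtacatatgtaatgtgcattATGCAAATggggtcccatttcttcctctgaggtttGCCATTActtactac
Lifr intron, Oct4BiD, chr15:7115818-7115938: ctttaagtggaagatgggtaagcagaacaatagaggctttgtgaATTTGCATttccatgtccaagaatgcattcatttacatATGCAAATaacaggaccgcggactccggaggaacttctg
Lifr intron, Oct4BiD, chr15:7179083-7179203: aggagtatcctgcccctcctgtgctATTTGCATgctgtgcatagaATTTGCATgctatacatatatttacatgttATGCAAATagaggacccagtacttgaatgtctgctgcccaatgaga

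The window 21.6 kb upstream of Lifr held 1 octamer and 1 NANOG motif. The window 25.3 kb into the gene held 2 octamers on opposite strands, and the window 88.5 kb into the gene held 3. In the region 88.5 kb into the gene, at chr15:7178083-7179756, native Oct4 scored 250 with 37 tags and Oct4BiD scored 629 with 92 tags. No library of another factor had a peak there. In the region at 25.3 kb, at chr15:7115064-7116691, native Oct4 scored 178 with 24 tags and Oct4BiD scored 573 with 71 tags. Native Nanog had a peak at the other end of that region with a score of 50.6, just over the lowest score called, which was 50 in every list. The upstream region, at chr15:7068322-7071876, was wide enough to hold separate summits. Both Oct4 forms had theirs 21.6 kb upstream, with scores of 338 in native Oct4 and 487 in Oct4BiD, at percentiles of 92.6 and 93.9. Both Nanog forms had theirs 19.5 kb upstream, with scores of 105 in native Nanog and 654 in NanogBiD, at percentiles of 41.2 and 98.2.

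For the other factors the same selection gave 1 region at Lin28b for Sox2 and 3 regions for Nr5a2, 1 at Stat3 and 2 at Tbx3.
Lin28b intron, Sox2BiD, chr10:45446383-45446503: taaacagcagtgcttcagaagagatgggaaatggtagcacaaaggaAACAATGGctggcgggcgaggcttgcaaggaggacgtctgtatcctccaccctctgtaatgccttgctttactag
Stat3 upstream, Nr5a2BiD, chr11:100962518-100962638: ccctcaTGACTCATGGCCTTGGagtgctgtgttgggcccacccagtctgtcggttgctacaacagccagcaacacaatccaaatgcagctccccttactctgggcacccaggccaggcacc
Tbx3 upstream, Nr5a2, chr5:119575099-119575219: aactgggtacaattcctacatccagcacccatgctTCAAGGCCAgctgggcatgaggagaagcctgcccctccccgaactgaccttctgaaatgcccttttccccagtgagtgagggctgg
Tbx3 upstream, Nr5a2, chr5:119596455-119596575: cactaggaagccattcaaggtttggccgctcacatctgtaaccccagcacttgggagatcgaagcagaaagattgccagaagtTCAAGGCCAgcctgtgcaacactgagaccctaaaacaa

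At Lin28b the SOX match lay in an intron 39.95 kb into the gene, at chr10:45445983-45446754. Native Sox2 scored 55.4 with 14 tags there and Sox2BiD scored 323 with 40 tags, and no other library had a peak. At Stat3 the NR5A match lay directly beside an AP-1 match, 22.98 kb upstream at chr11:100961682-100963478, in a region with a peak in all 8 libraries. Native Nr5a2 was at percentile 30.2 there and Nr5a2BiD at 34.2, whereas native Nanog, the highest of the 8, was at 78.2. The 2 Tbx3 regions had peaks in the Nr5a2 libraries only, 95.5 kb and 74.2 kb upstream of the gene and within 2 kb of start sites of other annotated genes, nearest to Tbx3os1 and Gm43399. Native Nr5a2 scored 342 and 227 in them, and Nr5a2BiD scored 117 and 78.4.

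Matches to the motif of the tagged factor were few at the 8 genes. In each library the interval of their share held the share over all its peaks. The intervals were wide, so a difference in share cannot be told from none. Matches were found at 13 of 109 summits in native Nr5a2, or 11.9% (6.51 to 19.5), against 11% of all its peaks. In Nr5a2BiD they were found at 5 of 76, or 6.58% (2.17 to 14.7), against 7.89%. In native Oct4 there were 3 of 36, or 8.33% (1.75 to 22.5), against 4.17% of all peaks. In Oct4BiD there were 4 of 59, or 6.78% (1.88 to 16.5), against 9.72%. All but 1 of these 7 Oct4 summits lay at Lifr. Native Nanog had 1 of 58, or 1.72% (0.04 to 9.24), against 1.7%. NanogBiD had 3 of 62, or 4.84% (1.01 to 13.5), against 2.55%. Each Sox2 library had 1, and both were the Lin28b site. The share was 2.94% (0.07 to 15.3) in native Sox2, against 1.9%, and 1.30% (0.03 to 7.02) in Sox2BiD, against 3.29%. AP-1 motifs, which mark many open sites in fibroblasts, were found at 20 of the 511 summits, or 3.91%, against 7.31% of all peaks. Many of these summits lie in shared regions, so they are not independent of each other.

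Counts of summits per gene differed widely among the 8 genes. The receptor gene Lifr (chr15:7090614-7197489) had 17 summits with native Nanog, 12 with Oct4, 8 with Sox2 and 18 with Nr5a2, and 16, 15, 14 and 14 with the fusions in the same order. The signal transducer Stat3 (chr11:100885098-100939540) had 16, 10, 10 and 23 with the native factors and 20, 22, 21 and 21 with the fusions. Stat3 had more summits than 83.3% to 97.4% of all coding genes, depending on the library, in a window that also holds the start sites of Stat5b, Stat5a, Cavin1 and Atp6v0a1. At Lifr no other coding gene starts in the window.

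Tfcp2l1 (chr1:118627945-118685168) had 2, 6, 3 and 18 summits with native Nanog, Oct4, Sox2 and Nr5a2, and 1, 3, 9 and 12 with the fusions. Tbx3 (chr5:119670669-119684724) had 4, 3, 4 and 21 with the native factors and 4, 4, 8 and 11 with the fusions. At both genes over 50% of the summits came from the 2 Nr5a2 libraries, 54.2% at Tbx3 and 55.6% at Tfcp2l1, as at Lin28a (51.7%) and Tcl1 (55.6%). The 2 Nr5a2 lists held 27.9% of all peaks, and their share was 30.8% at Stat3, 28.1% at Lifr, 26.3% at Prdm14 and 2.94% at Lin28b. Nr5a2 is an orphan nuclear receptor that can stand in for Oct4 in reprogramming. Prdm14 (chr1:13113457-13127163) had 5, 1, 5 and 6 with the native factors and 5, 4, 8 and 4 with the fusions. Tcl1 (chr12:105216750-105222793) had 9 summits in all, 4 of them with native Nr5a2 and none with either form of Oct4.

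The paralogs Lin28a and Lin28b had opposite gaps. Lin28a (chr4:134003330-134018841) had 7, 3, 0 and 19 summits with native Nanog, Oct4, Sox2 and Nr5a2, and 6, 7, 6 and 12 with the fusions. Lin28b (chr10:45376620-45486395) had 6, 1, 3 and 0 with the native factors and 9, 4, 10 and 1 with the fusions. Lin28b was thus without a summit in native Nr5a2, the library where the median coding gene had 15, and Lin28a was without one in native Sox2. A coding gene without any summit was found in 9.25% of cases in native Nr5a2 and 11.8% in native Sox2. The 31 Nr5a2 summits around Lin28a do not lie nearest to it. In neither Nr5a2 library was Lin28a the nearest coding start site of any of them, and 16 of the 31 were at promoters of other genes in the window, which holds Hmgn2, Dhdds, Zfp683, Crybg2, Cd52 and Ubxn11.

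**Figure D1:**
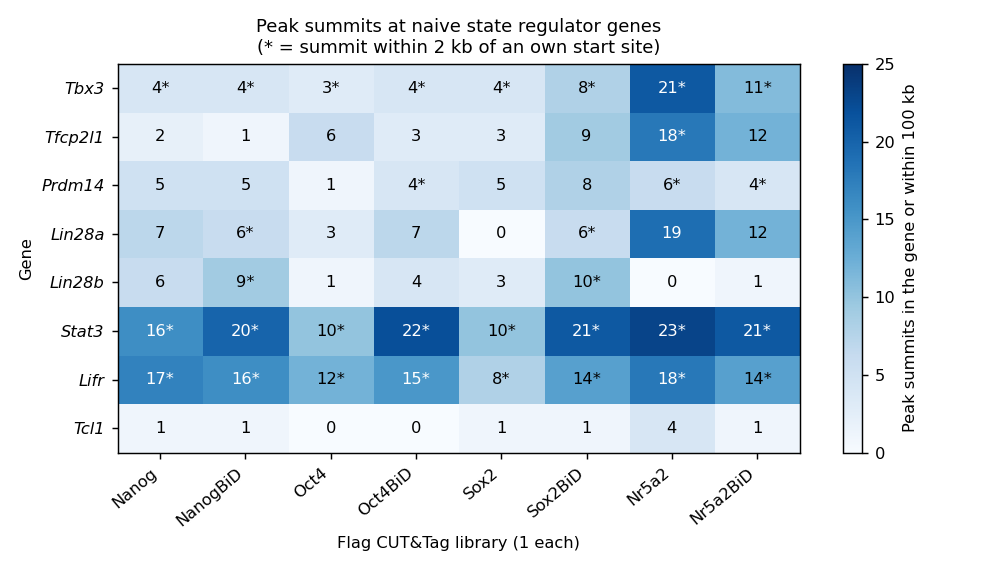
Number of peak summits in each gene or within 100 kb of its first start site (rows) in each of the 8 libraries (columns), with a star where a summit lay within 2 kb of a start site of the gene. Stat3 and Lifr had 8 to 23 summits in every library, Lin28b had 0 and 1 with the Nr5a2 forms, and Lin28a had 0 with native Sox2.

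Promoter summits were counted at any annotated start site of a gene. A summit within 2 kb of an own start site was found in all 8 libraries at Tbx3, Stat3 and Lifr. At Prdm14 it was found in 3 libraries, Oct4BiD, native Nr5a2 and Nr5a2BiD. At Lin28a and Lin28b it was found in NanogBiD and Sox2BiD only, at Tfcp2l1 in native Nr5a2 only, and at Tcl1 in no library. The number of start sites differed among the genes, with 14 at Stat3, 7 at Lifr, 6 at Tcl1, 5 at Tbx3, 4 at Lin28a, 3 at Lin28b, 2 at Tfcp2l1 and 1 at Prdm14, and its part in these counts was not tested. The members with a promoter summit were thus 3 in native Nanog, Oct4 and Sox2, 5 in native Nr5a2, and 5, 4, 5 and 4 with the fusions of Nanog, Oct4, Sox2 and Nr5a2. Of all coding genes, 51.2%, 39%, 25.2% and 63.5% had one with native Nanog, Oct4, Sox2 and Nr5a2, and 54.5%, 55.9%, 53.4% and 54% with the fusions. Among 8 genes, 3 to 5 is near that background in each library. Summits within 2 kb of a start site of any gene made up 20.6% to 34.2% of the member summits over the libraries, against 14.9% to 23.6% of all peaks. Member summits were taken from windows around a start site, so the 2 sets are unlike and a higher share is partly built in.

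At the Stat3 promoter the scores with native Nanog, Oct4, Sox2 and Nr5a2 were 433, 598, 368 and 381, and those with the fusions 416, 658, 516 and 499. The percentile ran from 87.8 in native Sox2 to 99.0 in native Oct4, and was 98.1 in Oct4BiD. The summits lay 24 to 192 bp from the start site. At the Tbx3 promoter, chr5:119667899-119672257, the scores were 355, 202, 205 and 252 with the native factors and 395, 514, 315 and 250 with the fusions. The percentile ran from 68.8 in native Sox2 to 94.8 in Oct4BiD. For Nanog and Nr5a2 it moved against the score, from 90.2 to 89.5 and from 77.8 to 81.4 with the fusion. Both genes were thus in the upper part of every list. Tbx3 had a further peak at an internal start site 9.73 kb into the gene in native Nr5a2 and in Nr5a2BiD, with scores of 331 and 238. Lifr has 7 annotated start sites. Its most recurrent region, chr15:7128549-7130512, covered one of them 38.7 kb into the gene and had a peak in every library but native Sox2. The Nr5a2 forms were highest there, with scores of 501 in native and 474 in Nr5a2BiD, at percentiles of 95.1 and 96.2. The remaining 5 libraries scored 72.3 to 141. The outermost Lifr start site had a summit within 100 bp in native Oct4, native Nr5a2 and Nr5a2BiD, at percentiles of 35.7 to 49.3.

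Promoter peaks of 4 further genes were found in 1 to 3 libraries each. At Prdm14 the summit lay 1401 bp from the start site in Oct4BiD, 849 bp in native Nr5a2 and 423 bp in Nr5a2BiD, at percentiles of 54.7, 49.5 and 1.02. At Tfcp2l1 the native Nr5a2 summit lay 167 bp upstream of the start site, with a score of 193 and 19 tags, and Nr5a2BiD had no peak there. At Lin28a the NanogBiD summit scored 75.5 and the Sox2BiD summit 59.4, the latter 370 bp from an internal start site. At Lin28b neither summit was at the first start site, and both lay beside an internal start site 16.5 kb into the gene. NanogBiD scored 87.5 there with 15 tags, and Sox2BiD scored 538 with 51 tags, at percentile 93.3 of its list.

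**Figure D2:**
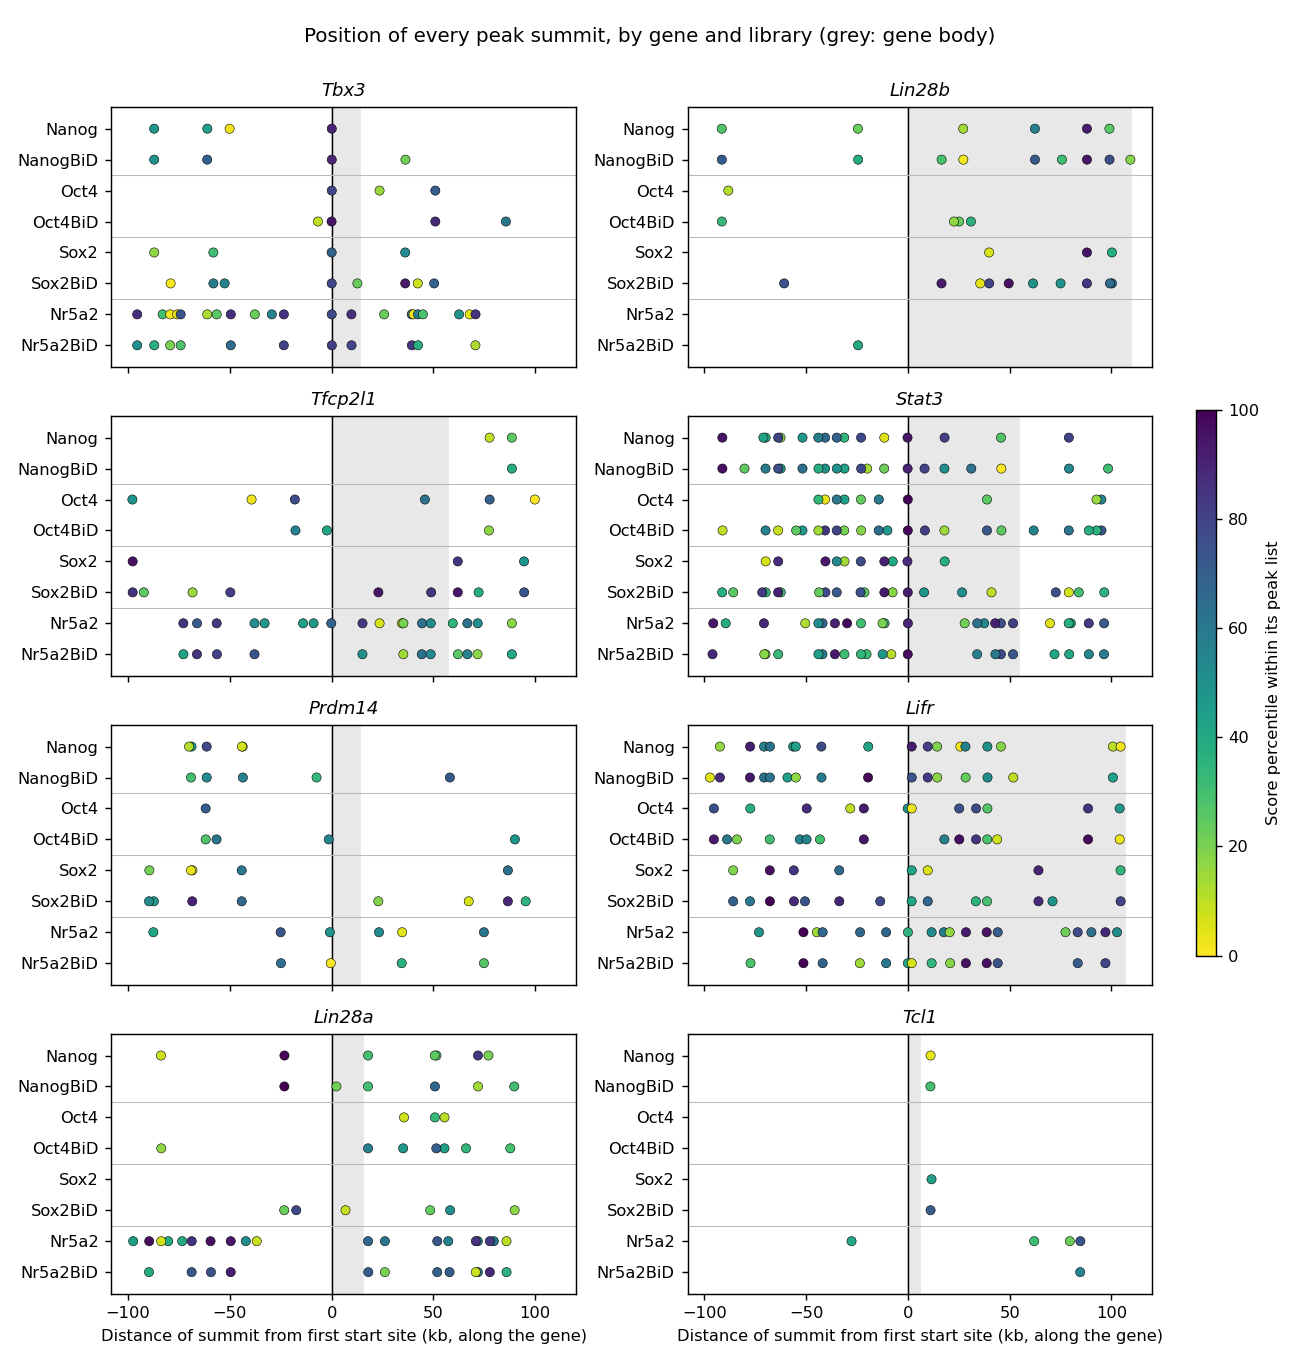
Distance of every summit from the first start site of its gene in kb, positive in the direction of transcription, by library (rows) for each gene (panels), with the gene body in grey and the score percentile in colour. Summits aligned over all 8 rows at the start of Tbx3 and Stat3, while those at Lin28b lay mostly inside the gene body in the Nanog and Sox2 libraries.

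Away from promoters the genes differed in which factors were found. In Lin28b, 24 of 34 summits were in the gene body and outside promoters. Its gene body took up 110 kb of a window of 210 kb, and the part of gene length was not tested. An intronic region 88.0 kb into the gene, chr10:45397862-45399135, had a peak in both forms of Nanog and of Sox2 and in no Oct4 or Nr5a2 library. Its score was 392 in native Nanog, 494 in NanogBiD, 521 in native Sox2 and 385 in Sox2BiD. A second intronic region 49.6 kb into the gene, chr10:45436246-45437331, had a peak in Sox2BiD only, with a score of 618 and 60 tags. It was the highest-scoring peak at the 8 genes that Sox2BiD had and native Sox2 lacked.

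Prdm14, with a gene body of only 13.7 kb, had no summit in that body outside promoters. Its most recurrent regions were 3 upstream ones with a peak in 4 libraries each, all nearest to the start site of Ncoa2. The one 44.2 kb upstream, chr1:13170602-13172112, had peaks in both forms of Nanog and Sox2, and the one 61.4 kb upstream, chr1:13188159-13189400, in both forms of Nanog and Oct4. The third, 68.5 kb upstream at chr1:13195227-13196668, had peaks in both forms of Nanog and Sox2 and the best percentile of the 3. Sox2BiD was at percentile 90.6 there, whereas the 2 native Sox2 summits were at 4.34 and 3.77. The Tfcp2l1 peak with the best percentile in its list, 95.8, lay 97.7 kb upstream, chr1:118529156-118530812, in native Sox2 with a score of 548 and in Sox2BiD with a score of 395. That site lay 1878 bp from a start site of Clasp1, the neighbouring gene, and native Oct4 also had a peak in it. Of the Tfcp2l1 peaks, 2 in Sox2BiD had higher scores, 558 with 68 tags at 61.96 kb beyond the start, chr1:118689323-118690355, and 555 with 47 tags at 22.99 kb, chr1:118650371-118651802. Their percentiles were 93.99 and 93.9, and the peak at 22.99 kb lay within 2 kb of a start site of another annotated gene. A region 88.5 kb beyond the Tfcp2l1 start, chr1:118716142-118716858, had peaks in both forms of Nanog and of Nr5a2, all weak, at percentiles of 17.4 to 39.9. The peaks near Tcl1 were few and 8 of 9 lay nearer to another gene, mainly its Tcl1b paralogs. The most recurrent one, 11.2 kb beyond the start and nearest to Tcl1b4, had scores of 52.9 in native Nanog, 88.4 in NanogBiD, 115 in native Sox2 and 259 in Sox2BiD. Per the methods, repetitive reads and reads of low mapping quality were removed before peaks were called. The effect of this on close gene copies was not tested.

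The 511 summits fell in 224 regions, where overlapping peaks of any libraries form 1 region. A peak from 1 library alone was found in 90 of them, or 40.2%, against 46% of 306466 regions in the genome. There were 4 regions with a peak in all 8 libraries, against 1.49% of all regions. These were the promoters of Stat3 and Tbx3 and 2 regions upstream of Stat3, chr11:100961682-100963478 and chr11:100973691-100976483, both nearest to Cavin1. In 7 or 8 libraries there were 8, or 3.57% (1.55 to 6.92), against 3.19%. Recurrence at the 8 genes was thus near that of the genome, and 6 of the 8 regions in the upper class came from the Stat3 window. Of those 6, the promoter region alone was nearest to Stat3, 4 were nearest to Cavin1, 1 of them at its promoter, and 1 was at the promoter of Atp6v0a1.

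**Figure D3:**
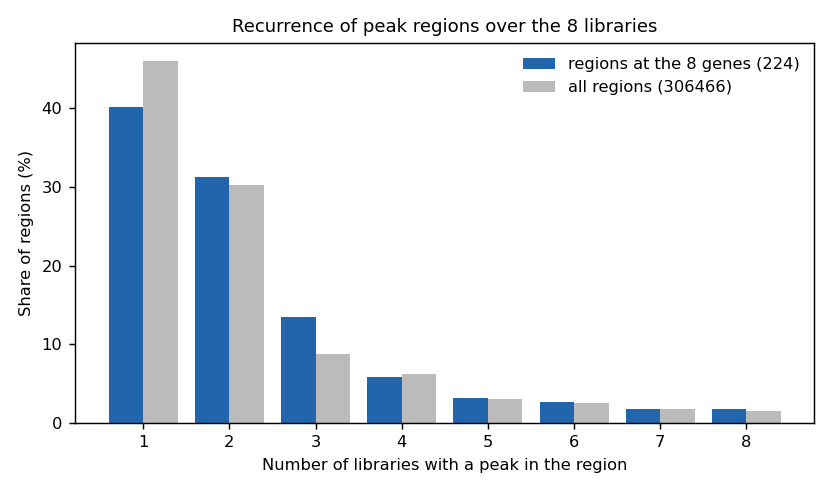
Share of regions (percent) by the number of libraries with a peak in them, for the 224 regions at the 8 genes and for all 306466 regions. At the 8 genes 40.2% of regions were found in 1 library, and 4 regions were found in all 8.

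The native and fused forms of Oct4, Sox2 and Nr5a2 overlapped at these genes about as often as elsewhere. Those of Nanog overlapped more often, within counting error. Regions with a peak in both forms, out of those with a peak in either, were 46 of 71 for Nanog, or 64.8% (52.5 to 75.8), against 55.8% of all regions. They were 26 of 69 for Oct4, or 37.7%, against 37.1%, then 30 of 79 for Sox2, or 37.97%, against 39.3%, and 66 of 116 for Nr5a2, or 56.9%, against 55.5%. Different factors shared from 5.26% of regions, for native Sox2 with native Nr5a2, to 29.5%, for native Nanog with Oct4BiD. Over all regions these 2 pairs shared 8.96% and 18.9%. As a share of each list, 72.2% of the native Oct4 regions had an Oct4BiD peak, and 44.1% of the Oct4BiD regions had a native Oct4 peak, against 73.4% and 42.8% over all regions. For Sox2 the shares were 90.9% and 39.5%, against 86.4% and 41.9%. For Nr5a2 they were 61.7% of native regions and 88% of Nr5a2BiD regions, against 60.9% and 86.3%. For Oct4, Sox2 and Nr5a2 these shares were thus within 5 points of those of the genome. For Nanog they were 83.6% of native regions and 74.2% of NanogBiD regions, against 72.9% and 70.4%, so the native share was further from that of the genome.

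Peaks that the other form lacked were weaker in every library. Their median percentile was 9.14 to 36.3, against 46.5 to 79.1 for shared peaks. Over all peaks the medians were 20.2 to 37.03 for peaks in 1 form and 54.6 to 73.4 for shared ones. The highest of them in Oct4BiD and in NanogBiD was the same region in an intron of Stat3, 8.38 kb into the gene at chr11:100930426-100932786, with scores of 310 and 283. Sox2BiD had a peak there too, with a score of 140, and no native library did. Within shared regions the Sox2BiD percentile was higher than that of native Sox2 in 24 of 30, with a median change of 14.2 points, where over all shared regions it was higher in 72.3%, with a median change of 12.2 points. The Oct4BiD percentile was higher than that of Oct4 in 17 of 26, by 8.94 points, against 61.9% and 6.37 points. For Nanog it was higher in 25 of 46, against 50.1%. For Nr5a2 it was lower in 42 of 66, with a median change of -6.24 points, against 64.7% and -5.71 points. The lists of Oct4BiD and Sox2BiD were longer than those of the native factors and the Nr5a2BiD list was shorter, and the part of list length in these percentiles was not tested.

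**Figure D4:**
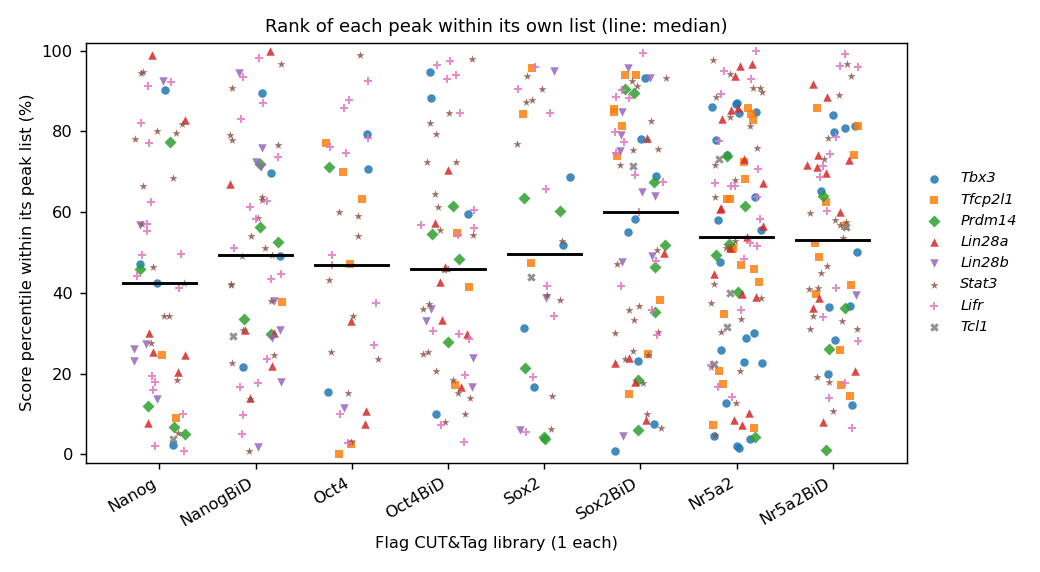
Score percentile of each of the 511 peaks within its own list (percent) by library, with a marker for each gene and a line at the median. Medians ran from 42.5 in native Nanog to 60.02 in Sox2BiD, and the highest points were Lifr in native Nr5a2 and Lin28a in NanogBiD, both at 99.9.

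Between the 2 forms of a factor, the number of summits at the 8 genes differed as the sizes of the peak lists did. The sums were 58 in native Nanog and 62 in NanogBiD, 36 in Oct4 and 59 in Oct4BiD, 34 in Sox2 and 77 in Sox2BiD, and 109 in Nr5a2 and 76 in Nr5a2BiD. The log2 ratio of fused over native was 0.10 (-0.44 to 0.64) for Nanog, where that of all peaks was 0.04. It was 0.71 (0.09 to 1.35) for Oct4, with 0.78 over all peaks, 1.18 (0.58 to 1.81) for Sox2, with 1.05, and -0.52 (-0.96 to -0.08) for Nr5a2, with -0.50. Every interval held the value of all peaks. Per 10000 peaks of the list the 8 genes had 7.89 and 8.18 summits in Nanog and NanogBiD, 6.57 and 6.28 in Oct4, 5.85 and 6.39 in Sox2, and 10.1 and 9.97 in Nr5a2. The rate thus ran from 5.85 to 10.1 over the 8 libraries. With the 50000 highest-scoring peaks of each list the direction of Oct4 turned, to -0.15, Sox2 fell to 0.43 and Nr5a2 was at -0.03, and with the 20000 highest the direction of Nanog turned too, to -0.21. The ratio at these genes and the number of peaks called cannot be told apart.

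Single genes were then compared on the log2 scale with 1 added to each count. A gene was counted as higher or lower with the fusion when this ratio reached 1 in either direction. With Nanog no member was counted in either direction, against 3.86% of genes higher and 3.66% lower. With Oct4 there were 4 members higher, against 37.3%, and none lower, against 1.72%. With Sox2 there were 4 higher, against 67.5%, and none lower, against 0.864%. With Nr5a2 there was 1 higher, Lin28b, against 0.951%, and 1 lower, Tcl1, against 11.5%. The intervals of single genes all held 0 except that of Lin28a for Sox2, with 0 native and 6 fused summits. Of these 6, 4 lay outside promoters and the gene body. The Lin28a interval started at 0.24 with no upper limit, so it held the 1.05 of all Sox2 peaks.

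Lin28b was the only member with more summits for the fusion of all 4 factors. Its mean log2 ratio was 1.07 ± 0.42 (SD, n = 4 factors), and 226 of 20756 genes, or 1.09%, had the same pattern. A two-sided exact permutation test that flips the signs of the 4 factor values gave p = 0.125, the smallest it can give, and 0.752 after Benjamini-Hochberg adjustment over all genes tested. No gene could pass 0.05 in this design. The Nr5a2 step rested on 1 summit, from 0 to 1, in Nr5a2BiD. The pattern was lost at scores of at least 100, where Nr5a2 had no change and the mean was 0.93 (p = 0.25 by the same exact permutation test). It was also lost with the 50000 highest-scoring peaks of each list, where Oct4 was lower and the mean was 0.60 (p = 0.5 by the exact permutation test). Tfcp2l1 had the opposite balance, lower with 3 of 4 fusions, with a mean of -0.15 ± 0.99 (SD, n = 4 factors) and p = 0.75 by the same exact permutation test. Genes lower with 3 of 4 fusions made up 1.23% of those tested, and genes lower with all 4, of which no member was one, 0.0145%. The other means were 0.75 ± 1.53 for Lin28a, 0.56 ± 0.57 for Stat3, 0.36 ± 0.78 for Prdm14, 0.15 ± 0.47 for Lifr, 0.07 ± 0.72 for Tbx3 and -0.33 ± 0.66 for Tcl1, and the median gene had 0.41. The Lin28a mean was 0.062 without Sox2 and the Prdm14 mean 0.033 without Oct4.

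**Figure D5:**
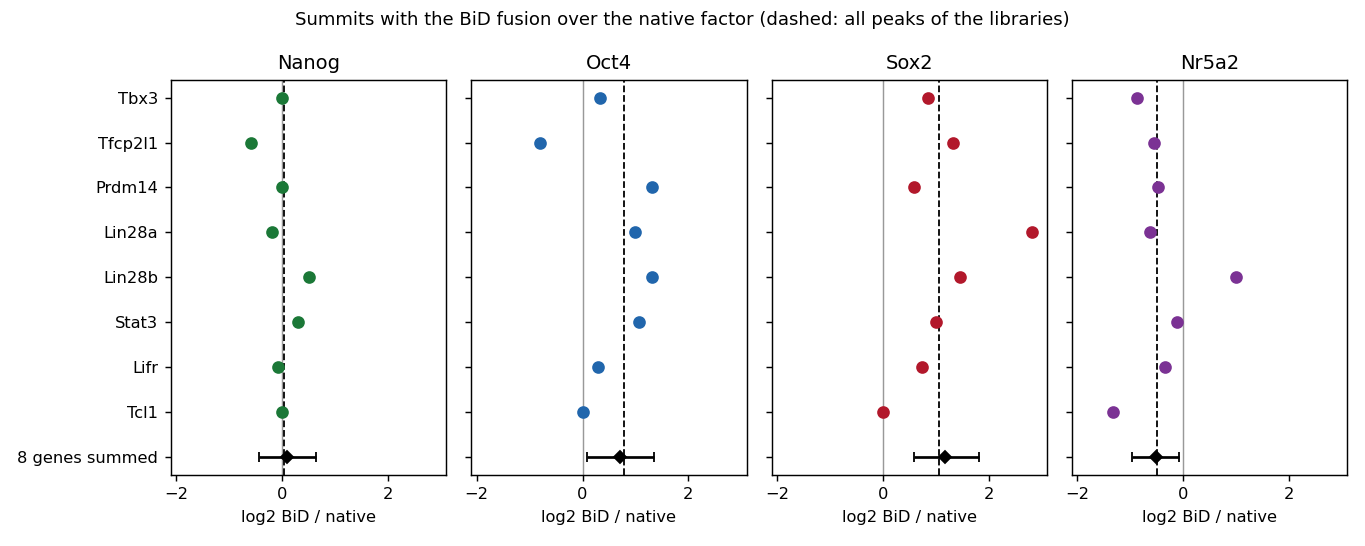
Log2 ratio of summits, fused over native, for each factor (panels) and gene (points, with 1 added to each count), with the sum over the 8 genes and its exact 95% interval (diamond) and the ratio of all peaks of the libraries (dashed). The sums lay on the dashed line within their intervals, and Lin28b was right of 0 in all 4 panels.

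The members were set beside 3 lists of partner genes and beside all genes. Of 11 genes of LIF and STAT3 signalling, among them the co-receptor Il6st, the kinase Jak1 and the feedback inhibitor Socs3, 10 had more summits with NanogBiD than with native Nanog, 11 with Oct4BiD, 11 with Sox2BiD and none with Nr5a2BiD. Over all genes with a summit in either library these were 11664 of 19659, 18034 of 20073, 19398 of 20365 and 918 of 20076. The median log2 ratio of this list was 0.24, 0.70, 1.26 and -0.54 for Nanog, Oct4, Sox2 and Nr5a2, against 0.17, 0.78, 1.19 and -0.50 over all genes. Of 9 genes around Lin28 and let-7, such as the let-7 processing enzymes Dicer1 and Drosha and the let-7 target Hmga2, 6, 9, 9 and 0 were higher, with medians of 0.22, 0.83, 1.42 and -0.51. Of 12 genes of the naive network, such as Klf4, Esrrb and Zfp42, 7, 10, 11 and 0 were higher, with medians of 0.15, 0.82, 0.89 and -0.89. With Nr5a2, 6 of these 12 were lower by the rule above, against a background of 11.5%, and 1 of 8 members was. The difference from the background was not tested. The 8 members had medians of 0, 0.66, 0.92 and -0.52.

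Genes whose summits were spread over the libraries most like those of a member were sought among genes with a similar number of summits, by the Euclidean distance between the 8 shares of summits. The nearest to Lin28b was Uba6, at 0.0814, with 8, 3, 6 and 1 summits for the native factors and 10, 6, 14 and 1 for the fusions. The nearest to Lin28a was Drd5 at 0.0307, to Stat3 Ctdsp1 at 0.0136, to Lifr Pcna at 0.0289, to Tbx3 Ttc38 at 0.0392, to Tfcp2l1 Tnfrsf8 at 0.0597 and to Prdm14 Nectin3 at 0.0372. Tcl1 had too few summits for this. Lin28b had the largest of these distances. Of the members searched it also had the fewest summits, 34, and the fewest genes to compare with, 2831. Their part in the distance was not tested.

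Promoter summits were also counted at marker genes of cell types. Of all coding genes, 25.2% (native Sox2) to 63.5% (native Nr5a2) had one, and differences from this background or between the groups of markers were not tested. Of 8 fibroblast genes, among them Col1a2, Vim and Twist1, 5 to 8 had a promoter summit in each library. Of 3 epithelial genes there were 3 in native Nr5a2, 2 in Nr5a2BiD, 1 in Sox2BiD and none elsewhere, of 2 endothelial genes 0 to 2, and of 2 immune genes 0 or 1. These counts are of peaks and do not measure the cell types present. The peak lists held 54794 to 120594 peaks and 661009 in all.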

How the data were processed

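Flag CUT&Tag of MEFs at day 3 was analysed in 8 libraries, 1 per group, grouped by title. According to the methods section, reads were trimmed (Trim Galore 0.6.4), aligned to mm10 (bowtie2 2.4.5) and cleared of repetitive, mitochondrial and low-quality (mapping quality under 30) reads (SAMtools 1.16.1), replicates were merged, and peaks were called by MACS 1.4.2 with a 25-bp shift. The study's reporting form gives CUT&Tag as performed once, and no control library is named. As deposited, the score of a peak is its MACS p-value as −log10 multiplied by 10 and was at least 50 in every list (a threshold of 1e-05). The height deposited for each summit is a signal in whole tags and was not scaled to depth. Peak lists hold no read totals, but the reporting form gives the read pairs of each library. For Oct4, Sox2 and Nr5a2 the form with more read pairs had the shorter peak list, and for Nanog the longer one. No value was scaled to depth, which can move peak numbers, scores and heights between libraries, and its part was not tested. Percentiles within a list were used for this reason.

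Positions were made 1-based and joined to GENCODE M21 and GRCm38 with Python 3.11.15, pandas 2.3.3, NumPy 2.4.6 and SciPy 1.17.1. A summit was given to a gene when in its body or within 100 kb of its first start site, and to a promoter within 2 kb of an annotated start site. Peaks overlapping by 1 bp formed a region. Motifs were searched within 50 bp of summits. Log2 ratios per gene used a pseudocount of 1, and the sign-flip test ran on all 20756 coding genes with a summit. The calculations were tested on simulated data. Regions named were, for each gene, the one in most libraries, the one with the best percentile and those with the motif of the factor in both forms, and for each library the highest peak that the other form lacked. The members, lists and regions were chosen with earlier results of these data known. Likeness was sought among genes within 1.5 times of a member's summits, for members with at least 10. Alternatives were other windows, score, height and peak number limits, promoter and motif distances, pseudocount, and leaving out genes or factors.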

Additional observations from a re-analysis of the deposited data

Results flagged for a closer look

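Changes with the fusion went in different directions for different factors at 6 genes and in the sum over the 8 genes. With 1 library per group these differences were not tested. All values are log2 ratios of summits, fused over native, with 1 added to each count for single genes. Nr5a2 went lower where Oct4 and Sox2 went higher at Tbx3 (-0.87), Prdm14 (-0.49), Lin28a (-0.62) and Lifr (-0.34), and where Nanog, Oct4 and Sox2 went higher at Stat3 (-0.13) and in the sum over the 8 genes (-0.52). Over all peaks of the libraries the Nr5a2 value was -0.50, so these directions are also those of the peak lists. Nanog went lower where Oct4 and Sox2 went higher at Lin28a (-0.19) and Lifr (-0.082), each by 1 summit. Sox2 went higher at Tfcp2l1 (1.32), where the other 3 factors went lower, with 3 native and 9 fused summits. Over all peaks the values were 1.05 for Sox2, 0.78 for Oct4 and 0.04 for Nanog. At Tfcp2l1 it was thus Oct4 (-0.81) and Nanog (-0.58) that went against the direction of their lists.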

How the results depend on the processing

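The sum over the 8 genes kept its direction with windows of 50 kb or 100 kb, nearest-start assignment and limits on score or height. Limits on peak number turned or moved it. For Oct4 the log2 ratio was -0.15 with the 50000 and -0.13 with the 20000 highest-scoring peaks, for Sox2 0.43 and 0.39, for Nr5a2 -0.026 and -0.40, and for Nanog 0.28 and -0.21, which turned its direction. These alternatives give both lists the same length. Without each gene in turn the Nanog ratio ranged from 0 to 0.17, that of Oct4 from 0.51 to 0.90, that of Sox2 from 1.06 to 1.28 and that of Nr5a2 from -0.64 to -0.44. Gene means near 0 changed sign. With 50000 peaks Tbx3 had -0.15, Lifr -0.017 and Tfcp2l1 0.20, and Tfcp2l1 had 0.15 within 50 kb and 0.16 at scores of at least 100. Lin28b stayed higher, at 1.23 within 50 kb and 1.33 with a pseudocount of 0.5 (both p = 0.125, exact permutation), but fell to 0.93 at scores of at least 100 (p = 0.25) and 0.60 with 50000 peaks (p = 0.5, exact permutation). Leaving out each factor gave -0.18 to 0.39 for Tbx3 (lower without Oct4 or Sox2), -0.65 to 0.063 for Tfcp2l1 (higher without Oct4), -0.041 to 0.32 for Lifr (lower without Sox2), 0.95 to 1.26 for Lin28b, 0.062 to 1.20 for Lin28a (0.062 without Sox2), 0.033 to 0.64 for Prdm14 (0.033 without Oct4), 0.39 to 0.79 for Stat3 and -0.44 to 0 for Tcl1 (0 without Nr5a2). The promoter share of native Nr5a2 summits was 18.3% at 500 bp and 21.1% at 1 kb, against 30.3% at 2 kb, and that of Nr5a2BiD 22.4% at 500 bp, against 34.2%. Over all peaks, which were not taken from windows around start sites, these were 12.4%, 16.5% and 22.8% for native Nr5a2. For Nr5a2BiD they were 14.3% and 23.6%. Regions of Nr5a2 in both forms were 39.1% when summits had to lie within 100 bp. Regions in 7 or 8 libraries numbered 3 under each of the 3 alternatives (summits within 100 bp, scores of at least 100, 50000 peaks), against 8. Motif shares were 0% for native Nanog and native Sox2 within 25 bp and at scores of at least 100, 4.59% for native Nr5a2 within 25 bp, 20.2% within 100 bp and 5.41% at scores of at least 100, and 0% for Nr5a2BiD within 25 bp. The cause of these changes was not tested. No paired analysis was possible because each group holds 1 library with no replicate, and the exact test instead pairs the 2 forms of each of 4 factors. No value was scaled to depth, so a peak missing from a list cannot be told apart from a site that was not bound.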

Other observations

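The genome file marks repeated sequence in lower case, and summits were counted by whether their base was so marked. At the 8 genes 16 of 109 summits of native Nr5a2 were in repeats, or 14.7%, against 12.8% of all its peaks. Of its 13 summits there with an NR5A motif, 7 were in repeats, against 22.5% of the 11848 peaks of the whole list with that motif. In Nr5a2BiD it was 1 of 5, against 17.6%. The Tbx3 site 74.2 kb upstream and the Lifr site with 3 octamers 88.5 kb into the gene were both in repeats, in the native and the fused library. The Lifr sites at 21.6 kb upstream and at 25.3 kb, the Lin28b SOX site and the Tbx3 site 95.5 kb upstream were not.

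Of the 511 summits, 276 had a start site of their own member as the nearest coding start, or 54.01%. The share differed among genes, from 59 of 59 at Tbx3 and 106 of 114 at Lifr to 46 of 143 at Stat3, 9 of 38 at Prdm14, 3 of 60 at Lin28a and 1 of 9 at Tcl1. Coding exons held 3 of the 511 summits.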
